A study of Homo sapiens with 18 samples.

Results

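The 10 genes described here build new centrioles or set their length: PLK4, STIL, SASS6, CENPJ, CEP152, CEP192, CEP135, CEP97, CCP110 and CNTROB. They were chosen by name as genes of procentriole assembly and centriole length control, and all 10 were found among the 26668 gene symbols of the expression table. RNA was sequenced from PANC-1, MIA PaCa-2 and PaTu 8988T, which are human pancreatic cancer cell lines kept in culture. Each line gave 3 control libraries and 3 knockdown libraries, and the question was what changed when OFD1, a protein of the centriole's distal end, was depleted. The knockdown libraries are labelled shOFD1, a short hairpin RNA against OFD1 switched on by doxycycline for 72 h. The control libraries are labelled shControl with a wild-type genotype, no treatment and no time, while the study's methods describe cells carrying the inducible OFD1 hairpin that received DMSO in place of doxycycline. No group received doxycycline without OFD1 knockdown, so the drug and the hairpin cannot be told apart. The series description places controls at day 0 and knockdown at day 3, and if the controls were taken then, time in culture cannot be told apart from the knockdown either. The labels do not say whether the 3 libraries of a group came from separate cultures, and p-values then measure the spread between these libraries, which may be technical.

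A cell copies its centriole pair once in each cell cycle. PLK4, a kinase brought to the mother centriole by CEP192 and CEP152, acts together with STIL, and STIL with SASS6 forms the symmetric cartwheel on which a new centriole grows. CENPJ, also called CPAP, and CEP135 build and stabilise the microtubule wall, CNTROB (centrobin) sits on the young centriole, and CCP110 with CEP97 caps the distal end and limits elongation, the end where OFD1 also acts.

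Values are FPKM, reads on a gene scaled by gene length and by the reads of the library, and each library held 32486479 to 39797537 counted reads. A change is the difference of mean log2(FPKM + 0.1), knockdown minus control, tested with limma over all genes with a mean of at least 1 FPKM in that line, and a gene is said to have fallen or risen at an adjusted p below 0.05. OFD1 fell in PANC-1 (5.43 to 2.55 FPKM, log2 fold change -1.07), in MIA PaCa-2 (2.85 to 1.82 FPKM, -0.61) and in PaTu 8988T (2.06 to 0.911 FPKM, -1.10). The OFD1 length behind the FPKM was 4150 bases in PANC-1 and 9312 in the other lines, so OFD1 levels are not set against PANC-1. The epithelial keratins KRT8 and KRT18 were high in every line, at group means of 319 FPKM or more, whereas other genes of the 6-gene epithelial list were low in some: KRT19 (0.00647 FPKM in controls), CDH1 (0.276) and KRT7 (0.401) in PaTu 8988T, and EPCAM (0.0330), CDH1 (0.00175) and KRT7 (0.847) in MIA PaCa-2. Of the tested genes of that list, 2 of 6 fell and 3 rose in PANC-1, KRT19 falling from 178 to 89.2 FPKM, 1 of 3 fell in MIA PaCa-2, KRT8 from 947 to 554 FPKM (from 826 FPKM without control replicate 2, where KRT19 also rose), and 2 of 3 fell in PaTu 8988T. Of 8 markers of other cells, 1 passed the filter in PANC-1, the collagen gene COL1A1 (26.1 to 22.3 FPKM), 1 in MIA PaCa-2, the leukocyte gene PTPRC (3.51 FPKM in controls, log2 fold change 0.81), and 0 in PaTu 8988T. Their summed level was 25.4 to 26.8 FPKM in PANC-1 controls and 22.8 to 24.0 FPKM after knockdown, 2.44 to 4.55 FPKM and then 5.97 to 6.37 FPKM in MIA PaCa-2, and 0.120 FPKM or less in PaTu 8988T, while CD3E, CPA1 and INS were listed at 0 in every line. Their part in the results was not tested. Replicates of a group were compared by chi-square per degree of freedom. Pairs of PaTu 8988T knockdown libraries gave 7.74 to 12.4. Limma standard errors of the members were 0.0476 to 0.159 in that line, beside 0.0476 to 0.130 in PANC-1. Pairs in the other groups gave a chi-square per degree of freedom of 3.23 to 4.92, MIA PaCa-2 controls aside. One library stood furthest apart: control replicate 2 of MIA PaCa-2 differed from the other controls of its line by 130 and 132, against 3.05 between those 2. The MIA PaCa-2 changes of the members, of OFD1 and of the gene lists are therefore also given without it further on.

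Nearly all duplication genes fell in PANC-1 on OFD1 knockdown, and no change of any of them was detected in PaTu 8988T. In PANC-1, 9 of the 10 genes fell, beside 32.2% of the 10902 genes tested, and none rose, beside 40.1%. Their median log2 fold change was -0.45, against 0.06 for all genes tested. In MIA PaCa-2, 9 of the 10 passed the filter on low values and 1 of them, CNTROB, fell, beside 21.7% of 10758 genes, while none rose, beside 18.7%. Their median change there was -0.24, against -0.03 for all genes. In PaTu 8988T, limma called 0 of 10 lower, beside 18.5% of 10698 genes, and 0 of 10 higher, beside 20.9%. There the changes lay between -0.13 and 0.17 with a median of -0.02, against 0.03 for all genes, and 0 of 10 had an unadjusted p below 0.05. Knockdown libraries lay wholly below the controls for 9 genes in PANC-1 (33.4% of all genes tested), for 3 of 9 tested in MIA PaCa-2 (31.3%; 8 of 9 without control replicate 2, beside 43.9%) and for 0 in PaTu 8988T (24.0%). No member changed more than 2-fold in any line. In RNA from whole cultures, fewer cells that express a gene and less RNA per cell cannot be told apart.

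PLK4, the kinase that starts duplication, lies at chr4:127880861-127899195 on the plus strand (GRCh38, GENCODE 29, as all gene positions here). In PANC-1, PLK4 read 7.10, 5.93 and 6.59 FPKM in the controls and 3.79, 3.90 and 3.96 FPKM in the knockdown libraries. The groups did not overlap, and PLK4 fell by 0.73 on the log2 scale (SE 0.0762, 95% interval -0.90 to -0.56, adjusted p = 1.23e-05), to 59.4% of control. In MIA PaCa-2, PLK4 stood at 8.91, 5.46 and 9.50 FPKM in the controls and 5.17, 5.14 and 4.96 FPKM after knockdown. The groups lay apart here too, but control replicate 2 came close to the knockdown level, and the log2 fold change of -0.59 (SE 0.210) missed the threshold (adjusted p = 0.0613). In PaTu 8988T, PLK4 was at 13.2, 13.1 and 13.3 FPKM in the controls and 14.6, 11.9 and 13.5 FPKM in the knockdown libraries. These groups overlapped around a log2 fold change of 0.01, with a 95% interval of -0.14 to 0.16.

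CEP192 (chr18:12991362-13125052, plus strand) and CEP152 (chr15:48712928-48811146, minus strand) are the scaffolds that bring PLK4 to the mother centriole. In PANC-1, CEP192 read 4.72, 4.48 and 5.23 FPKM against 3.88, 4.07 and 3.91 FPKM after knockdown, and CEP192 fell by 0.27 on the log2 scale (SE 0.0758, adjusted p = 0.00814). This was the smallest of the 9 falls in that line. MIA PaCa-2 held 10.0, 6.56 and 9.32 FPKM of CEP192 in the controls and 5.78, 6.48 and 6.56 FPKM after knockdown, the highest knockdown library lying just under control replicate 2. The log2 fold change was -0.43 (SE 0.170, adjusted p = 0.0836). In PaTu 8988T, CEP192 was at 9.87, 10.3 and 10.1 FPKM in the controls and 10.1, 8.44 and 9.11 FPKM after knockdown, overlapping groups with a change of -0.13 (95% interval -0.28 to 0.02).

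In PANC-1, CEP152 stood at 2.31, 2.31 and 2.12 FPKM in the controls and 1.57, 1.79 and 1.64 FPKM in the knockdown libraries. It fell by 0.41 on the log2 scale (SE 0.102, adjusted p = 0.00463), to 74.3% of control. In MIA PaCa-2, CEP152 read 1.01, 0.643 and 0.869 FPKM in the controls and 0.823, 0.913 and 0.982 FPKM after knockdown, under the filter of 1 FPKM, so it was not tested. With no filter its change there was 0.11 (SE 0.204), and -0.05 (SE 0.146) without control replicate 2 as well. In PaTu 8988T, CEP152 held 1.37, 1.27 and 0.972 FPKM in the controls and 1.42, 0.999 and 1.16 FPKM after knockdown, overlapping groups with a change of -0.01 (95% interval -0.37 to 0.35).

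STIL (chr1:47250139-47314147, minus strand) and SASS6 (chr1:100083563-100132955, minus strand) form the cartwheel. In PANC-1, STIL read 10.2, 9.57 and 9.39 FPKM in the controls and 5.43, 5.89 and 5.78 FPKM after knockdown. No library of one group reached the other, and STIL fell by 0.76 on the log2 scale (SE 0.0591, 95% interval -0.89 to -0.63, adjusted p = 1.46e-06). In MIA PaCa-2, STIL was at 15.1, 10.1 and 15.5 FPKM in the controls and 11.5, 11.4 and 11.0 FPKM after knockdown, so that control replicate 2 lay below all 3 knockdown libraries. The change was -0.24 (SE 0.172, adjusted p = 0.309). In PaTu 8988T, STIL stood at 9.92, 10.0 and 9.70 FPKM against 10.3, 10.2 and 9.79 FPKM, and its change of 0.03 had the narrowest interval of the 10 genes there, -0.07 to 0.14.

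In PANC-1, SASS6 read 2.33, 3.05 and 2.29 FPKM in the controls and 1.39, 1.41 and 1.59 FPKM in the knockdown libraries. SASS6 fell by 0.75 on the log2 scale (SE 0.130, adjusted p = 4.56e-04) with no overlap. MIA PaCa-2 gave 5.50, 2.16 and 5.22 FPKM of SASS6 in the controls and 4.79, 4.48 and 4.98 FPKM after knockdown. Here 1 control lay far below every other library of the line and the other 2 lay above the knockdown libraries, and the change was 0.25 (95% interval -0.56 to 1.06). In PaTu 8988T, SASS6 was at 2.90, 2.93 and 2.46 FPKM against 3.12, 1.96 and 2.67 FPKM, with a change of -0.11 (95% interval -0.45 to 0.22).

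CEP135 (chr4:55948871-56033363, plus strand) links the cartwheel to the centriole wall. In PANC-1, CEP135 read 2.42, 2.44 and 2.66 FPKM in the controls and 1.39, 1.41 and 1.42 FPKM after knockdown. This was the largest fall of the 10 genes in that line, with a log2 fold change of -0.79 (SE 0.0977, adjusted p = 4.53e-05), to 56.2% of control. In MIA PaCa-2, CEP135 stood at 1.08, 0.636 and 1.34 FPKM in the controls and 1.03, 1.16 and 1.17 FPKM after knockdown, overlapping groups with a change of 0.18 (95% interval -0.42 to 0.78). In PaTu 8988T, CEP135 held 4.26, 3.98 and 3.87 FPKM against 4.23, 3.40 and 3.85 FPKM, a change of -0.08 (95% interval -0.28 to 0.12).

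CENPJ (chr13:24882284-24922889, minus strand) adds tubulin to the growing centriole. In PANC-1, CENPJ read 2.18, 2.19 and 2.56 FPKM in the controls and 1.62, 1.86 and 1.94 FPKM after knockdown. CENPJ fell by 0.34 on the log2 scale (SE 0.112, adjusted p = 0.0198), and this call was lost without control replicate 3 (adjusted p = 0.0812) or without knockdown replicate 1 (adjusted p = 0.0711), with limma in each case. In MIA PaCa-2, CENPJ was at 3.04, 2.14 and 3.24 FPKM in the controls and 2.20, 2.24 and 2.01 FPKM after knockdown, and only control replicate 2 overlapped the knockdown libraries. The change was -0.35 (SE 0.173, adjusted p = 0.151). In PaTu 8988T, CENPJ stood at 3.50, 3.29 and 3.58 FPKM against 3.69, 3.22 and 3.27 FPKM, a change of -0.03 (95% interval -0.20 to 0.15).

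CNTROB (chr17:7932101-7949918, plus strand) encodes centrobin, a protein of the daughter centriole. In PANC-1, CNTROB read 14.5, 14.7 and 15.6 FPKM in the controls and 10.8, 10.8 and 10.3 FPKM after knockdown. CNTROB fell by 0.49 on the log2 scale (SE 0.0476, adjusted p = 7.82e-06). In MIA PaCa-2, CNTROB was at 15.3, 19.3 and 16.2 FPKM in the controls and 13.1, 13.0 and 13.3 FPKM after knockdown. All 3 controls lay above the knockdown libraries and control replicate 2 was the highest of them, the opposite of its place for the other members. CNTROB fell by 0.35 on the log2 scale there (SE 0.106, adjusted p = 0.0370). The call was lost without control replicate 3 (adjusted p = 0.0668) or without knockdown replicate 1 (0.121), 2 (0.124) or 3 (0.115), and it was kept without control replicate 1 or 2. In PaTu 8988T, CNTROB held 10.5, 9.83 and 11.4 FPKM against 8.97, 9.47 and 10.7 FPKM, overlapping groups with a change of -0.13 (95% interval -0.30 to 0.04).

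CCP110 (chr16:19523811-19553408, plus strand) and CEP97 (chr3:101723925-101770562, plus strand) encode the 2 partners of the distal cap, and they parted in PANC-1. In PANC-1, CCP110 read 8.24, 7.93 and 8.70 FPKM in the controls and 6.56, 6.05 and 6.03 FPKM after knockdown. CCP110 fell by 0.41 on the log2 scale (SE 0.0613, adjusted p = 1.72e-04), to 74.9% of control. In PANC-1, CEP97 stood at 4.68, 4.07 and 4.30 FPKM in the controls and 4.28, 4.03 and 4.18 FPKM after knockdown. These groups overlapped, and CEP97 was the only member that did not fall in that line, with a change of -0.06 (95% interval -0.23 to 0.11, adjusted p = 0.489). The difference between the changes of CCP110 and CEP97 was not tested.

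In MIA PaCa-2, CCP110 was at 4.29, 2.37 and 4.45 FPKM in the controls and 2.96, 3.56 and 3.47 FPKM after knockdown. CEP97 read 3.12, 1.66 and 3.17 FPKM in the controls of that line and 2.92, 2.94 and 2.72 FPKM after knockdown. For both genes control replicate 2 lay below every other library, and the changes were -0.10 (95% interval -0.69 to 0.49) for CCP110 and 0.16 (95% interval -0.43 to 0.75) for CEP97. In PaTu 8988T, CCP110 stood at 4.35, 5.08 and 4.48 FPKM against 5.91, 4.53 and 5.25 FPKM, and its change of 0.17 (95% interval -0.06 to 0.39) was the highest of the 10 genes there. CEP97 held 3.62, 3.89 and 3.63 FPKM against 4.12, 3.52 and 3.68 FPKM in that line, a change of 0.02 (95% interval -0.15 to 0.19).

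Exact two-sided permutation tests over the 6 libraries of a line gave p = 0.1 for the 9 genes that fell in PANC-1, which is the smallest p that 3 libraries against 3 allow. The calls above therefore rest on the limma model, which shares its estimate of spread across all genes.

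**Figure D1:**
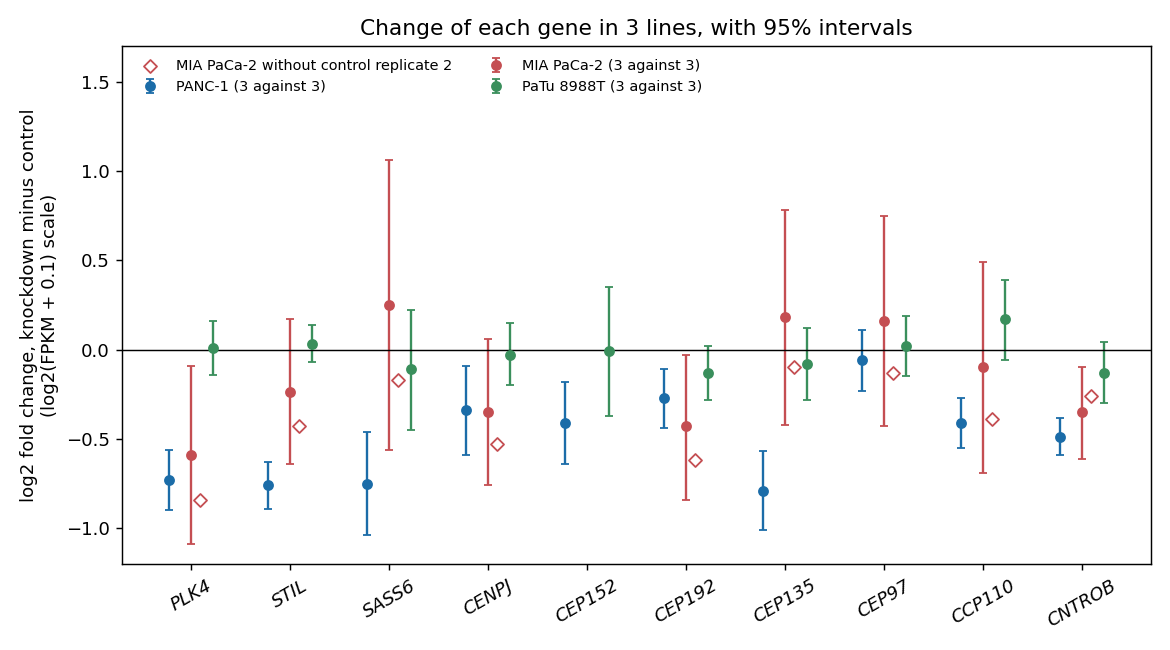
Log2 fold change of each gene, knockdown minus control on the log2(FPKM + 0.1) scale, in PANC-1 (blue), MIA PaCa-2 (red) and PaTu 8988T (green), with bars for the 95% interval of the limma fit and open diamonds for MIA PaCa-2 without control replicate 2. The blue intervals exclude 0 for 9 genes, the red ones are wide, the green ones all include 0, and all 9 diamonds lie below 0.

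The MIA PaCa-2 values turned on a single control. Control replicate 2 read lower than the mean of the other 2 controls for 9 of the 10 genes, from -0.48 (CEP152) to -1.27 (SASS6) on the log2 scale, and higher for CNTROB, at 0.29. Across the 10233 genes of that line with a transcript sequence, the deviation of this library rose with the GC content of the longest transcript (Spearman rho = 0.88, over genes, which are not independent replicates). The median deviation was -0.60 in the 25% of genes lowest in GC content and 0.54 in the 25% highest. Transcripts of 9 members held 34.9% to 42.1% GC, below the 48.5% of the median gene of that line, and the CNTROB transcript held 58.7%. In the other 2 lines the same rho ran from -0.67 to 0.66 over single libraries, and the farthest median deviation of the 25% of genes at either end was -0.15, in PaTu 8988T knockdown replicate 2.

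**Figure D2:**
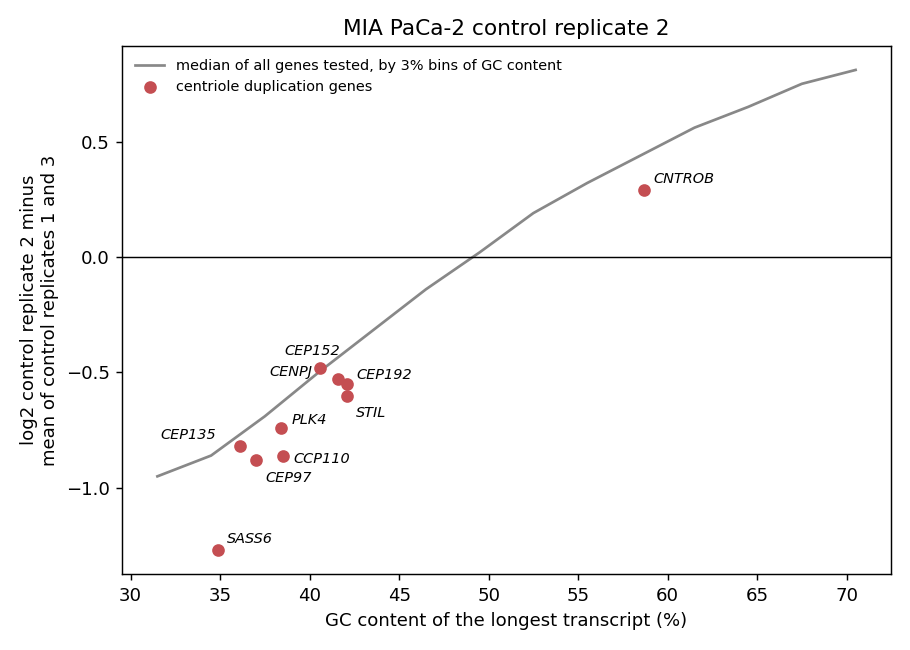
Log2 difference of MIA PaCa-2 control replicate 2 from the mean of control replicates 1 and 3 (vertical axis) against the GC content of the longest transcript in percent (horizontal axis), for the 10 genes (red points) and as the median of all genes tested in bins of GC content (grey line). The 9 genes of low GC content lie near or below the grey line at -0.48 or less, and CNTROB lies at 0.29.

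Without control replicate 2, 7 of the 9 members tested in MIA PaCa-2 fell, beside 39.8% of all genes, and none rose, beside 35.4%. PLK4 then fell by 0.84 on the log2 scale (SE 0.0529, adjusted p = 1.82e-06), CEP192 fell by 0.62 (SE 0.0670, adjusted p = 5.09e-05) and CENPJ fell by 0.53 (SE 0.0855, adjusted p = 5.81e-04). STIL fell by 0.43 (adjusted p = 1.68e-05), CCP110 fell by 0.39 (adjusted p = 0.00401) and CNTROB fell by 0.26 (adjusted p = 4.51e-04). SASS6 turned from 0.25 to -0.17 and passed the threshold (adjusted p = 0.0388). CEP135 (-0.10, adjusted p = 0.547) and CEP97 (-0.13, adjusted p = 0.127) did not. The median change of the 9 genes was -0.39, and OFD1 itself fell by 0.76 on the log2 scale. Over all genes of the line, the rank correlation of the log2 fold change with GC content was -0.16 with all 6 libraries and 0.12 without this one, so both versions carry some trend with GC content. The median changes of the 25% of genes lowest in GC content were 0.07 and -0.12 in MIA PaCa-2. In PANC-1 and PaTu 8988T the rank correlation of the log2 fold change with GC content was -0.10 and -0.15. The part of this trend in the members' changes was not tested.

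The changes were compared between lines in one limma model over all 18 libraries, in which 9 members could be tested. The comparisons share libraries, and they are not independent of each other. Gene lengths behind the FPKM differed in PANC-1 for PLK4, STIL, CCP110, CNTROB and OFD1, and their part in these differences was not tested. From PANC-1 to MIA PaCa-2, 3 members differed, beside 43.4% of the 9083 genes tested: the change in PANC-1 minus that in MIA PaCa-2 was -0.52 for STIL (adjusted p = 0.0153), -1.01 for SASS6 (adjusted p = 0.0345) and -0.97 for CEP135 (adjusted p = 0.00390). PLK4 changed by -0.73 and -0.59 in these 2 lines, a difference of -0.14 with a 95% interval of -0.58 to 0.30. From PANC-1 to PaTu 8988T, 4 members differed, beside 35.8% of genes. The difference was -0.75 for PLK4 (adjusted p = 0.0101), -0.79 for STIL (adjusted p = 0.00112), -0.71 for CEP135 (adjusted p = 0.0287) and -0.36 for CNTROB (adjusted p = 0.0258). CCP110 missed the threshold with a difference of -0.58 (adjusted p = 0.0789). From MIA PaCa-2 to PaTu 8988T, 1 member differed, beside 52.9% of genes: PLK4, with a difference of -0.61 (95% interval -1.04 to -0.17, adjusted p = 0.0214). The change of OFD1 itself in PANC-1 minus that in PaTu 8988T was 0.03, with a 95% interval of -0.32 to 0.38.

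Leaving out 1 library at a time kept the STIL and CEP135 differences between PANC-1 and MIA PaCa-2 and the PLK4 and STIL differences between PANC-1 and PaTu 8988T past the threshold in every case. The other 4 were lost in some. For SASS6 this happened without PANC-1 control replicate 2 or knockdown replicate 1 or 2, or MIA PaCa-2 knockdown replicate 1 or 3, with adjusted p from 0.0605 to 0.0852. For CEP135 between PANC-1 and PaTu 8988T it happened without PANC-1 control replicate 3 or knockdown replicate 1, or PaTu 8988T control replicate 2 or 3 or knockdown replicate 1 or 3, with adjusted p from 0.0533 to 0.0708. The CNTROB difference was lost without control replicate 3 or knockdown replicate 3 of PANC-1, or control replicate 2 or knockdown replicate 3 of PaTu 8988T, with adjusted p from 0.0581 to 0.0757. The PLK4 difference between MIA PaCa-2 and PaTu 8988T was lost without MIA PaCa-2 control replicate 1 or 3, or PaTu 8988T knockdown replicate 1, with adjusted p from 0.0536 to 0.0560.

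Without control replicate 2 of MIA PaCa-2, the PANC-1 differences from MIA PaCa-2 were -0.33 for STIL (adjusted p = 5.08e-04), -0.58 for SASS6 (adjusted p = 0.0155) and -0.69 for CEP135 (adjusted p = 2.57e-04). CNTROB (-0.23, adjusted p = 0.0323) and CEP192 (0.34, adjusted p = 0.00857) then differed too, CEP192 having fallen further in MIA PaCa-2. The PLK4 difference between MIA PaCa-2 and PaTu 8988T was -0.85 (adjusted p = 5.56e-07) without that library. STIL (-0.47), CENPJ (-0.50), CEP192 (-0.48) and CCP110 (-0.55) also differed between those lines in that fit, with adjusted p from 8.22e-06 to 0.00205. That fit shares its spread over all lines, and between PANC-1 and PaTu 8988T it also called CCP110 (-0.58, adjusted p = 6.37e-04), SASS6 (-0.64, adjusted p = 0.00638) and CENPJ (-0.31, adjusted p = 0.0338), with the same differences as before. The share of all genes that differed in that fit is not given here, so these calls have no share to stand beside.

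The 10 genes stood at different levels, and their order differed between MIA PaCa-2 and PaTu 8988T. In PANC-1 controls, CNTROB was highest at 14.9 ± 0.595 FPKM (SD, n = 3), followed by STIL at 9.72 ± 0.427, CCP110 at 8.29 ± 0.391 and PLK4 at 6.54 ± 0.588, and the libraries of these 4 genes lay apart from each other. CEP192 (4.81 FPKM) and CEP97 (4.35 FPKM) overlapped, and so did each pair of neighbours among SASS6, CEP135, CENPJ and CEP152, at means of 2.55 to 2.24 FPKM. In MIA PaCa-2 controls, CNTROB (16.9 FPKM) and STIL (13.6 FPKM) led and overlapped, and CEP152 was lowest at 0.842 FPKM, 20.1 times below CNTROB. Only 2 of the 9 pairs of neighbours lay apart in that line. Without control replicate 2, 6 of the 9 pairs did, CNTROB stood at 15.7 FPKM and STIL at 15.3 FPKM, CEP97 and CENPJ traded places at 3.14 FPKM each, and CNTROB was 16.7 times above CEP152. In PaTu 8988T controls, PLK4 was the highest of the 10 genes at 13.2 ± 0.101 FPKM, apart from CNTROB at 10.6 ± 0.777 FPKM. CNTROB, CEP192 (10.1 FPKM) and STIL (9.88 FPKM) followed, each overlapping the next, and CEP152 was again lowest at 1.20 FPKM. The gene lengths behind the FPKM were the same in MIA PaCa-2 and PaTu 8988T for all 10 genes but differed in PANC-1 for PLK4, STIL, CCP110 and CNTROB, so levels of these were not set against PANC-1. Between the former 2 lines, PLK4 had control means of 7.95 and 13.2 FPKM and CEP135 of 1.02 and 4.04 FPKM, while CNTROB stood at 16.9 and 10.6 FPKM. Without control replicate 2, the MIA PaCa-2 means were 9.20 FPKM for PLK4, 1.21 FPKM for CEP135 and 15.7 FPKM for CNTROB. No test was made of these levels between lines.

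The lists below are read beside the shares of all genes already given: 32.2% lower and 40.1% higher in PANC-1, 21.7% and 18.7% in MIA PaCa-2 (39.8% and 35.4% without control replicate 2), and 18.5% and 20.9% in PaTu 8988T. Of 20 other genes of centriole assembly and length, 7 fell and 6 rose in PANC-1, near or under those shares, with a median of 0.07. TUBE1, the epsilon-tubulin of centriole triplets, rose there from 17.9 to 28.1 FPKM (log2 fold change 0.65, adjusted p = 5.82e-07). In MIA PaCa-2, 2 of 19 fell and 4 rose (median 0.05), among them TUBE1 (1.10, adjusted p = 0.0140), POC1B (1.03, adjusted p = 0.0331) and SPICE1 (0.71, adjusted p = 0.0122). Control replicate 2 was the lowest control for these genes, and without it their changes were 0.80, 0.67 and 0.56, all under 2-fold and all past the threshold. In PaTu 8988T, 3 of 18 fell and 4 rose (median 0.03), CEP76 rising by 0.24 on the log2 scale (adjusted p = 0.00910). Without MIA PaCa-2 control replicate 2, 6 of 19 fell and 8 rose in that line.

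Of 14 genes of the pericentriolar material and the gamma-tubulin ring, the complex that nucleates microtubules, 9 fell and 2 rose in PANC-1 (median -0.19). TUBG1, gamma-tubulin itself, fell there by 0.56 on the log2 scale (51.1 to 34.6 FPKM, adjusted p = 1.11e-07) and rose by 0.28 in PaTu 8988T (adjusted p = 0.00327). In MIA PaCa-2, 3 of 14 fell and 0 rose (median -0.13), among them the ring component TUBGCP4 (9.42 to 3.76 FPKM, log2 fold change -1.30, adjusted p = 2.81e-04). Without control replicate 2, 7 fell and 4 rose there and the TUBGCP4 change was -1.35. In PaTu 8988T, 1 fell and 3 rose (median 0.02).

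Regulators of centriole number license or limit duplication. Of 18, 10 fell and 6 rose in PANC-1 (median -0.35), and 4 fell more than 2-fold, beside 4.84% of all genes. These were ESPL1, the separase that frees centrioles to duplicate (8.27 to 2.47 FPKM, -1.71), CCNE2, a cyclin E (3.29 to 1.03 FPKM, -1.60), and the mitotic kinases PLK1 (42.6 to 19.1 FPKM, -1.15) and AURKA (45.2 to 22.5 FPKM). In MIA PaCa-2, 9 of 18 fell and 0 rose (median -0.29), and ESPL1 (-1.54), CCNE2 (-1.52) and PLK1 (-1.30) fell more than 2-fold, beside 3.68% of all genes. Without control replicate 2, 11 fell and 4 rose, 4 fell more than 2-fold, and the changes of ESPL1, CCNE2 and PLK1 were -1.39, -1.80 and -1.24. In PaTu 8988T, 1 fell and 7 rose (median 0.12), and the one that fell was again ESPL1 (log2 fold change -0.45, adjusted p = 7.69e-05).

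Of 10 partners of the CCP110 and CEP97 cap, 6 fell and 2 rose in PANC-1 (median -0.23). In MIA PaCa-2, 2 of 10 fell and 0 rose (median 0.01), and 6 fell and 2 rose without control replicate 2. In PaTu 8988T, 2 fell and 1 rose (median 0.02). Among genes that watch centrosome number, 2 of 8 fell and 2 rose in PANC-1 (median 0.01), 1 fell and 2 rose in MIA PaCa-2 (median -0.13; 3 and 2 without control replicate 2), and 1 fell and 3 rose in PaTu 8988T (median 0.12). CDKN1A, the cell cycle inhibitor p21, rose in all 3 lines, from 19.0 to 29.8 FPKM in PANC-1, from 1.33 to 10.7 FPKM in MIA PaCa-2 (log2 fold change 2.95, and 3.17 without control replicate 2) and from 21.8 to 25.1 FPKM in PaTu 8988T. MDM2 fell by 0.75 on the log2 scale in PANC-1 (adjusted p = 1.34e-07). CASP2, the protease of the PIDDosome, fell by 0.93 in MIA PaCa-2 (adjusted p = 5.21e-04, and a change of -0.95 without control replicate 2) and rose by 0.30 in PaTu 8988T (adjusted p = 0.00330).

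By their medians, proliferation markers fell further than the duplication genes in PANC-1 and MIA PaCa-2, and none fell in PaTu 8988T. All 12 fell in PANC-1 (median -1.05, 8 of them more than 2-fold), and their summed level was 587 to 596 FPKM in controls and 286 to 296 FPKM after knockdown. Examples are TOP2A, a topoisomerase of dividing cells (log2 fold change -1.27), the proliferation antigen MKI67 (-1.25), the replication clamp PCNA (-1.03) and the mitotic activator CDC20 (-1.02). The summed level of the 10 duplication genes was 56.7 to 59.4 FPKM in those controls and 40.7 to 41.2 FPKM after knockdown. For these 10 genes the sums were 51.0 to 68.8 FPKM and then 50.3 to 51.3 FPKM in MIA PaCa-2. They were 63.4 to 63.7 FPKM and then 57.7 to 66.5 FPKM in PaTu 8988T. In MIA PaCa-2, 11 of 12 markers fell (median -0.71), among them PCNA (-1.15) and CDC20 (-1.03), with sums of 1534 to 1607 FPKM in controls and 929 to 941 FPKM after knockdown. All 12 fell there without control replicate 2 (median -0.84), PCNA with a change of -1.23 and CDC20 with -0.93. In PaTu 8988T, 0 of 12 fell and 5 rose (median 0.07), PCNA by 0.30 on the log2 scale (adjusted p = 2.09e-04), with sums of 1011 to 1026 FPKM and 1094 to 1120 FPKM. The part of proliferation in the changes of the duplication genes was not tested.

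The members did not all vary together. Across the 18 libraries, each expressed as log2(FPKM + 0.1) minus the mean of the controls of its line, Pearson's r between pairs of the 9 genes measured in all lines ran from -0.324 for CEP97 and CNTROB to 0.923 for SASS6 and CEP135. PLK4 followed CENPJ (0.922) and STIL (0.905) most closely. CCP110 followed STIL (0.831) and PLK4 (0.814) most closely, and its cap partner CEP97 less so (0.689). These points share libraries, knockdown status and, in MIA PaCa-2, control replicate 2, and the values are descriptions. Over all 9083 genes tested in every line, the 5 most like PLK4 were CDK6 (0.987), UBE2K (0.985), TMTC3 (0.984), SMC4 (0.982) and TLK1 (0.982). All 5 fell in PANC-1, with log2 fold changes of -1.06, -0.87, -1.28, -1.27 and -0.70 in that order, and none changed beyond the threshold in PaTu 8988T. In MIA PaCa-2 their changes were -0.87, -0.64, -1.16, -0.82 and -0.64, and SMC4 alone missed the threshold (adjusted p = 0.0686, limma). The 5 most like CCP110 were CKAP2 (0.955), IL13RA1 (0.954), SH3GLB1 (0.949), PPP1R12A (0.947) and ECT2 (0.942), with PANC-1 changes between -0.29 and -0.39. Both sets were picked by likeness over these same libraries, so changes like those of PLK4 and CCP110 follow from the choice.

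The start regions of the genes were searched for letters of cell cycle promoters, because 9 of them fell together in PANC-1. RefSeq windows of 250 bases before and 50 bases after each annotated start (GRCh38.p14) were at hand for all 10 genes, CENPJ under its current symbol CPAP. The CHR element (TTTGAA or TTCGAA on either strand), which binds the DREAM and MuvB complexes in other cell cycle genes, was present in 4 of 10 genes and in 16.4% of the 35116 windows of all genes, several of which can belong to 1 gene. A member counted if any of its windows held the word, so shares of genes and of windows are unlike measures. An E2F-like word (TTTCCCGC, TTTGGCGC or TTTCGCGC on either strand) was present in 2 of 10 genes and in 2.74% of windows. A CCAAT box on either strand was present in 6 of 10 genes and in 34.6% of windows. The CHR and E2F-like words share no position in the windows printed here. The 30 bases around each CHR and E2F-like word are shown 5′ to 3′ on the gene's strand, the word in capitals:
PLK4, CHR, chr4:127880913-127880942, plus strand: ggcaagcggcgggagattTTCAAAatggga
CEP135, CHR, chr4:55948936-55948965, plus strand: ctccgcgccattTTCAAActgctctagcgc
CEP152, CHR, chr15:48811231-48811260, minus strand: ctggcgcccgctTTCAAAcagccgtacttt
CEP192, CHR, chr18:12991156-12991185, plus strand: cggcttcctcgcTTCAAAtccaggaacgcg
CEP192, E2F-like, chr18:12991382-12991411, plus strand: cagtccgtggacTTTCCCGCtgcacactgc
SASS6, E2F-like, chr1:100132897-100132926, minus strand: gcagaagccgaGCGCCAAActcaaacttta

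All 4 CHR words lie on the strand opposite to the gene, at position 39 of the transcript in PLK4, position 4 in CEP135, and 179 and 194 bases before the start in CEP152 and CEP192. The 5 genes that hold a CHR or an E2F-like word had log2 fold changes of -0.27 (CEP192) to -0.79 (CEP135) in PANC-1. STIL, CENPJ, CCP110 and CNTROB hold neither in these windows and had changes of -0.34 (CENPJ) to -0.76 (STIL). CEP97, which did not fall, holds neither. The ranges overlap, and whether the words bear on the falls was not tested.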

How the data were processed

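RNA-seq of 18 libraries (3 lines, 3 control and 3 knockdown libraries each) was used as a table of FPKM values deposited by the authors, who mapped reads with HISAT2 and counted them with HTSeq-count. The annotation is not given in the sources used here. The authors tested with DESeq2 on counts, and since FPKM are not counts, limma 3.58.1 (trend) was used here on log2(FPKM + 0.1) within each line, for genes with a mean of at least 1 FPKM, with Benjamini-Hochberg adjustment over all genes. The pseudocount understates changes of low genes, and the fit was tested on simulated data. Whole reads behind the FPKM were recovered from their steps and served for depth, gene lengths and a voom alternative. The members and lists were chosen with earlier results of these data known. Named genes were the 10 members, OFD1, in each list those past 2-fold and the one of smallest p per line (some list genes past 2-fold are left unnamed, 1 is not reported here, and some cell markers were added), and the 5 most like PLK4 and CCP110. Source labels of PaTu 8988T replicates 2 and 3 name other lines, and the titles were followed. Alternatives were other pseudocounts and filters, re-centring, voom, a replicate block, 1 joint fit and leaving out each library. Control levels, library overlap and unfiltered CEP152 values without MIA PaCa-2 control replicate 2 were added after seeing the data. Transcript GC content and gene positions came from GENCODE 29 (Python with scipy), and no coordinates came from the table.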

Additional observations from a re-analysis of the deposited data

Results flagged for a closer look

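Of the changes compared between lines with the limma interaction test, 8 differed at an adjusted p below 0.05. Over all 9083 genes tested, 43.4% differed between PANC-1 and MIA PaCa-2 and 35.8% between PANC-1 and PaTu 8988T. The share was 52.9% between MIA PaCa-2 and PaTu 8988T. The change in PANC-1 was below that in MIA PaCa-2 for STIL (difference -0.52), SASS6 (-1.01) and CEP135 (-0.97). It was below that in PaTu 8988T for PLK4 (-0.75), STIL (-0.79), CEP135 (-0.71) and CNTROB (-0.36). PLK4 also changed differently between MIA PaCa-2 and PaTu 8988T (-0.61). Without MIA PaCa-2 control replicate 2, the SASS6 and CEP135 differences from MIA PaCa-2 shrank to -0.58 and -0.69. As given above, the SASS6 and CNTROB differences were lost when some single libraries were left out. So were the CEP135 difference between PANC-1 and PaTu 8988T and the PLK4 difference between MIA PaCa-2 and PaTu 8988T.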

How the results depend on the processing

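The number of members that fell in PANC-1, 9, became 4 when genes needed a mean of at least 5 FPKM, which tests fewer of them, and 0 when more than 2-fold was also asked. The 1 member that fell in MIA PaCa-2, CNTROB, became 0 with no filter on low values, after re-centring on the library median, with the replicate block and with the 2-fold limit, and 4 in one fit of all 18 libraries. Of all genes there, 18.9% fell after re-centring and 16.9% with the replicate block. Leaving out 1 library at a time gave 0 to 7 members in MIA PaCa-2, the 7 without control replicate 2. The share of all genes that fell ran from 12.3% to 39.8% over those fits, highest without control replicate 2. In PaTu 8988T, leaving out 1 library gave 0 to 1 lower members (14.3% to 18.9% of all genes) and 0 to 1 higher (13.7% to 23.3%). SASS6 in MIA PaCa-2 ranged from -0.17, reversed, without control replicate 2, to 0.48 without control replicate 1. Members that differed between lines numbered 2 to 5 (PANC-1 against MIA PaCa-2), 2 to 7 (PANC-1 against PaTu 8988T) and 0 to 5 (MIA PaCa-2 against PaTu 8988T) when 1 library was left out. The highest value in each range came without MIA PaCa-2 control replicate 2. The shares of all genes that differed in these fits are not given here. In the joint fit, the CEP192 and CCP110 calls in PANC-1 were lost (adjusted p = 0.0650 and 0.0555, limma). With pseudocount 1 the SASS6 difference between PANC-1 and MIA PaCa-2 was -0.71 (adjusted p = 0.0509). Same-numbered libraries did not deviate together (r of 0.13 or less for each pair), so the replicate block has no ground in the design, and it changed no other member call. OFD1 in MIA PaCa-2 missed the threshold when any single library other than control replicate 2 was left out (adjusted p = 0.0608 to 0.0899). The causes were not tested. Depth was similar throughout, and members at about 1 FPKM, such as CEP135 and CEP152 in MIA PaCa-2, are the least precise.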
